A study of Mus musculus with 9 samples.

Results

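Immediate early genes are transcribed within minutes of a stimulus such as serum, growth factors, contraction or stress, without the need for new protein synthesis, and most of their transcripts are short-lived. Many encode transcription factors. FOS proteins pair with JUN proteins to form AP-1, a dimer that binds DNA at the promoters and enhancers of genes for growth, matrix turnover and differentiation. In muscle, these genes are known to respond to exercise, to injury and to the state of the satellite cells, the stem cells of the fibers.

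The 10 genes described are Fos, Fosb, Fosl1, Fosl2, Jun, Junb, Egr1, Atf3, Ier2 and Nr4a1. They were chosen by name, and each symbol was matched to 1 Ensembl identifier among the 46078 genes listed for the cultured cells and the 38293 listed for tissue. Gene expression was measured by RNA sequencing in 9 libraries of C57BL/6 mice (C57Bl6/J for the tissue, by the study's methods). MB are primary myoblasts, the proliferating descendants of satellite cells, grown in medium with basic FGF (10 ng/ml), FBS (20%) and horse serum (10%) (2 libraries). Lactate-treated MB received 10 mM sodium-L-lactate in PBS in the same medium (2 libraries), and control cells received PBS alone. MT are the multinucleated myotubes that MB form, here after 3 days in medium with 2% horse serum and neither FBS nor FGF (2 libraries). GAS is the whole gastrocnemius muscle of female mice aged 8 to 12 weeks, anaesthetised shortly before they were killed (3 libraries), a tissue that also holds vessels, connective tissue, nerve and immune cells. The labels number the libraries of each group as biological replicates. Cell state and serum change together between MB and MT, so their contributions cannot be told apart.

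The deposited raw counts summed to between 5198247 and 10839516 per library of cultured cells and to between 19307793 and 19941574 for GAS. At this depth 3 counts correspond to between 0.277 and 0.577 CPM in cultured cells and to at most 0.155 CPM in GAS, limits that cover counting error only. Levels are given as CPM, counts scaled to a common library size with TMM normalisation, for 1 gene across libraries, and as RPKM (CPM per kilobase of exon) where genes are compared with each other. Cultured cells were sequenced with Smart-seq2 and GAS with a poly(A) protocol, so GAS values stand beside the others without a test. Markers followed the labels, with Pax7 lower and Myog higher in MT than in MB, and Myh4 and Ckm most abundant in GAS. MT replicate 1 stood apart, with 28599 genes detected against 17965 in MT replicate 2. It held all 11 markers of nonmuscle cells at a summed 448 CPM, of which 408 CPM was Dcn, whereas MT replicate 2 held 5 of them at a summed 116 CPM. The 4 libraries of untreated and lactate-treated MB held 4 or 5 of these markers at 1.58 to 2.45 CPM. For the 10 genes, MT results whose call depended on 1 library are therefore also given without it. In whole samples of cells, a lower share of expressing cells and less RNA per cell cannot be told apart.

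The promoters of 7 of the 10 genes were found in the RefSeq table for GRCm38.p6, which covers 250 bases before to 50 bases after each start. Fosl1, Egr1 and Ier2 had no entry. The letters TGACG, the half-site of the cyclic AMP response element to which CREB and ATF factors bind, were searched on both strands. They occurred in 20.8% of the 32851 promoters in the table and in 5 of the 7 found here. These were Fos, Fosb, Junb, Nr4a1 and Atf3. Atf3 held 1 match and did not rise in MT, and its window is not printed. The windows of the 3 genes that rose in MT and hold the letters are printed with that of Fosb, which did not, on each gene's own strand, with the half-site in capitals in whichever of its orientations it occurs.
Fos, chr12:85473747-85473779, plus strand: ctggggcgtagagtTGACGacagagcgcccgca
Fos, chr12:85473810-85473842, plus strand: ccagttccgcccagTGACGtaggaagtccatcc
Junb, chr8:84978836-84978868, minus strand: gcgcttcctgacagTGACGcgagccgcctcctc
Fosb, chr7:19310087-19310119, minus strand: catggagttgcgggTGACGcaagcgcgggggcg
Nr4a1, chr15:101266599-101266651, plus strand: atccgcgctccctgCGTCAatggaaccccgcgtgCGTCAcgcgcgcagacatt
Nr4a1, chr15:101266763-101266824, plus strand: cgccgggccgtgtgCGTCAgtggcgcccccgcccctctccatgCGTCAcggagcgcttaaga
In Nr4a1, each of the 4 half-sites lies in the longer element TGCGTCA, described as an AP-1-like element of this gene, which contains the half-site in reverse orientation. This element occurred in 2.12% of promoters, and Nr4a1 was the 1 promoter of the table with 4 of them. The element was described in Nr4a1 itself and was chosen after the promoters were seen, so this share describes Nr4a1 and does not test it. Fosb held 1 match to the element, and Fos and Junb held none. No exact match to the full cyclic AMP response element TGACGTCA, to the AP-1 site TGACTCA or to the CArG box, the site of serum response factor, was found in the 7 promoters, against 1.79%, 5.20% and 1.63% of all promoters. Fosl2 and Jun had no match to any of the letters searched. A match describes these letters and not a bound site. Sites further upstream and sites with inexact letters were not searched, so a missing match does not show that a gene lacks the site.

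**Figure D1:**
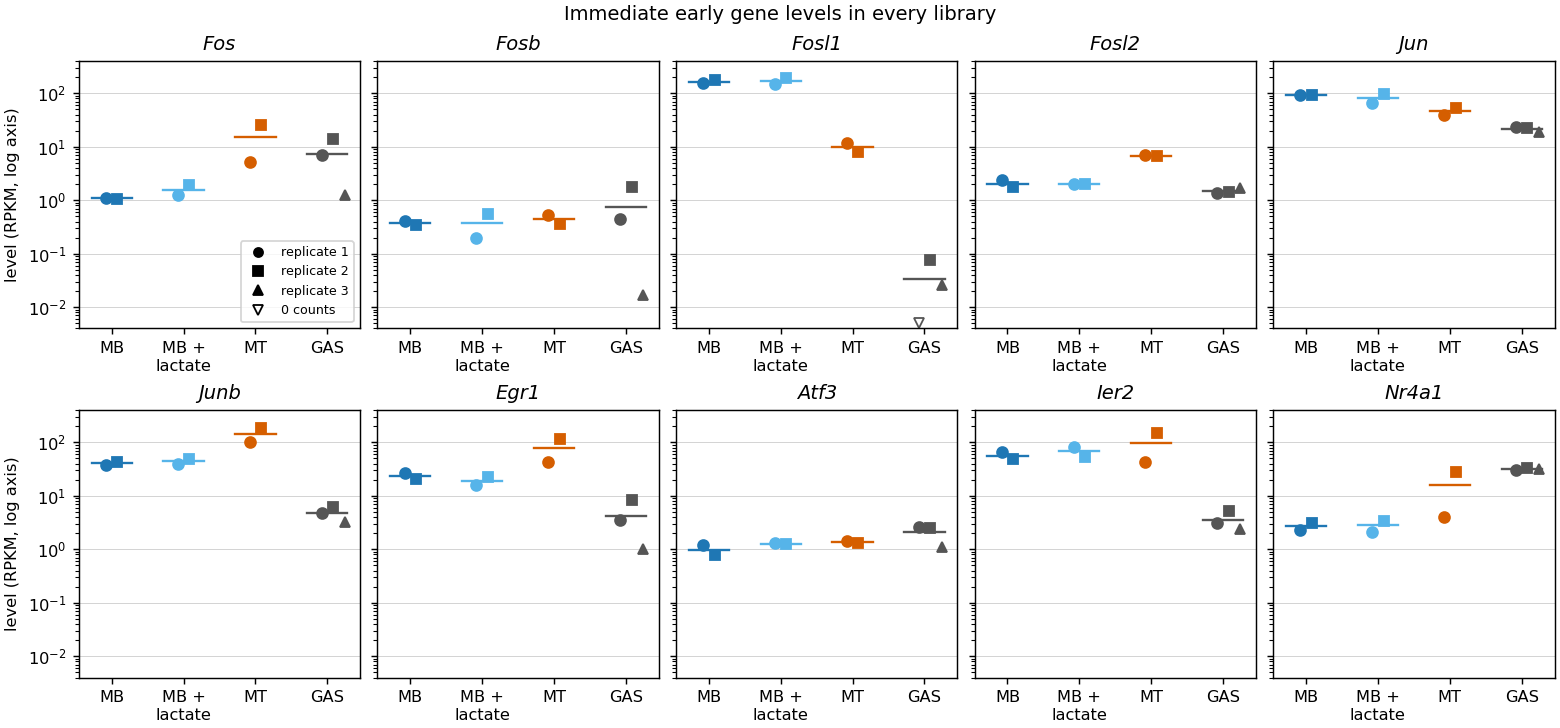
Level of each gene in every library, in RPKM on a log axis, with 1 panel per gene, 1 point per library, a line at the group mean and marker shapes for replicates. Fosl1 is between 151 and 190.3 RPKM in the 4 MB and lactate-treated libraries, at 11.6 RPKM or less in MT and near 0 in GAS, while Nr4a1 is tightly grouped in GAS at 31.0 to 32.5 RPKM.

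In MB, Fosl1 was the most abundant of the 10 genes at 166 ± 18.3 RPKM (SD, n = 2). Jun followed at 94.4 ± 0.40, Ier2 at 56.8 ± 11.7, Junb at 40.4 ± 4.19 and Egr1 at 23.4 ± 4.22 RPKM, and the ranges of these neighbours did not overlap. Nr4a1 and Fosl2 overlapped at 2.70 ± 0.51 and 2.06 ± 0.41 RPKM, as did Fos and Atf3 at 1.09 ± 0.01 and 0.99 ± 0.29. Fosb was the lowest at 0.38 ± 0.05 RPKM. In MT the order was different, with Junb at 144 ± 61.0, Ier2 at 97.5 ± 76.0, Egr1 at 79.0 ± 49.8 and Jun at 47.0 ± 9.93 RPKM, each overlapping its neighbour. Nr4a1, Fos and Fosl1 came next at 15.9 ± 16.9, 15.4 ± 14.3 and 9.73 ± 2.71 RPKM, again overlapping, and then Fosl2, Atf3 and Fosb. In GAS, Nr4a1 led at 31.8 ± 0.75 RPKM and Jun followed at 21.5 ± 2.48 (SD, n = 3), apart from each other and from the rest. All other neighbours in the GAS order overlapped, from Fos at 7.47 ± 6.42 to Fosl1 at 0.03 ± 0.04 RPKM.

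MT were compared with MB to find which genes change with differentiation. Of the 10 genes, 5 rose (Fos, Fosl2, Junb, Egr1 and Nr4a1), 1 fell (Fosl1) and 4 did not pass (Fosb, Jun, Atf3 and Ier2), with edgeR's quasi-likelihood test, which called a gene at an adjusted p under 0.05 and an absolute log2FC over 0.5. Of the 12921 genes tested, 11.0% rose and 6.86% fell by the same rule. The median log2FC was 1.22 over the 10 genes and 0.07 over all genes tested. All 10 genes passed the filter on low counts. Both MT libraries were above both MB libraries for 6 of the 10 genes and below them for 2, where 32.9% and 29.2% of all genes tested did the same. Without MT replicate 2, Fosl1 alone of the 10 genes passed, while 4118 genes rose in that comparison. The log2FC of Fos, Junb, Egr1 and Nr4a1 was then lower, at 2.17, 1.22, 0.80 and 0.47, and that of Fosl2 was near its value with all libraries, at 1.66. A comparison without an MT library has 1 MT library, and its spread is estimated from the MB libraries and assumed to hold for MT.

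The FOS subunits did not move together. Fos (chr12:85473890-85477273, plus strand), the founding subunit, had 2.57 and 2.53 CPM in MB replicates 1 and 2, and 12.4 and 59.9 CPM in MT. Both MT libraries were above both MB libraries, and MT replicate 2 was 4.85 times MT replicate 1. This was a 13.6-fold difference, with a log2FC of 3.76, an SE of 0.76 and an adjusted p of 0.0077. Without MT replicate 2 it was 2.17 (adjusted p = 0.0727).

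Fosl1 (chr19:5447547-5455946, plus strand) encodes FRA1, a FOS protein that lacks the strong activation domain of FOS and is maintained in growing cells. Its level was 311 and 363 CPM in MB and 23.7 and 15.9 CPM in MT, so that the groups were far apart. Fosl1 fell by 4.06 in log2 terms, with an SE of 0.51 and an adjusted p of 5.8e-04, and passed under each alternative tried, including each library left out in turn, with log2FC between -4.46 and -3.92. In the annotation Fosl1 shares 1163 exonic bases with Ccdc85b on the other strand, and whether the counting used strand is not given in the sources used here, so the division of reads between these genes is uncertain. Ccdc85b had 1308 and 798 raw counts in MB, 525 and 379 in MT and 355 to 390 in GAS. In GAS, Fosl1 had 0, 3 and 1 counts in replicates 1 to 3, at or under the limit of 3 counts, while Ccdc85b was well above it.

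Fosl2 (chr5:32135801-32157842, plus strand), which encodes FRA2, had 22.7 and 17.1 CPM in MB and 67.7 and 64.0 CPM in MT. The MT libraries were close to each other and both above MB, unlike those of Fos. The log2FC was 1.72 (SE 0.47, adjusted p = 0.0294), and it stayed between 1.38 and 1.90 when single libraries were left out, but the adjusted p was then over the threshold without MT replicate 1 (0.211), MT replicate 2 (0.0848) or MB replicate 2 (0.0718). Fosb (chr7:19302696-19310051, minus strand) was low in all cultured cells, with 2.57 and 2.17 CPM in MB and 3.35 and 2.29 CPM in MT. These groups overlapped, and the log2FC was 0.26 (SE 0.82, adjusted p = 0.857).

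Expressed as a share of the summed RPKM of the 4 FOS genes, Fosl1 made up 97.5% and 98.2% of FOS family transcripts in the MB libraries. In MT replicate 1 the shares were 47.7% Fosl1, 28.6% Fosl2 and 21.5% Fos, and in MT replicate 2 they were 19.4%, 16.4% and 63.3%. The share of Fosl1 was thus lower in both MT libraries than in both MB libraries, but which FOS gene was the most abundant differed between the MT libraries. RPKM here uses all exonic bases of a gene, 9680 for Fosl2 and 2033 for Fosl1. Their longest transcripts have 6537 and 1864 bases, and the shares and the order of these genes in MT were not recomputed with those lengths. The family total was 169 ± 17.8 RPKM in MB and 32.3 ± 11.2 RPKM in MT (SD, n = 2), as the rises of Fos and Fosl2 were smaller in RPKM than the fall of Fosl1.

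**Figure D2:**
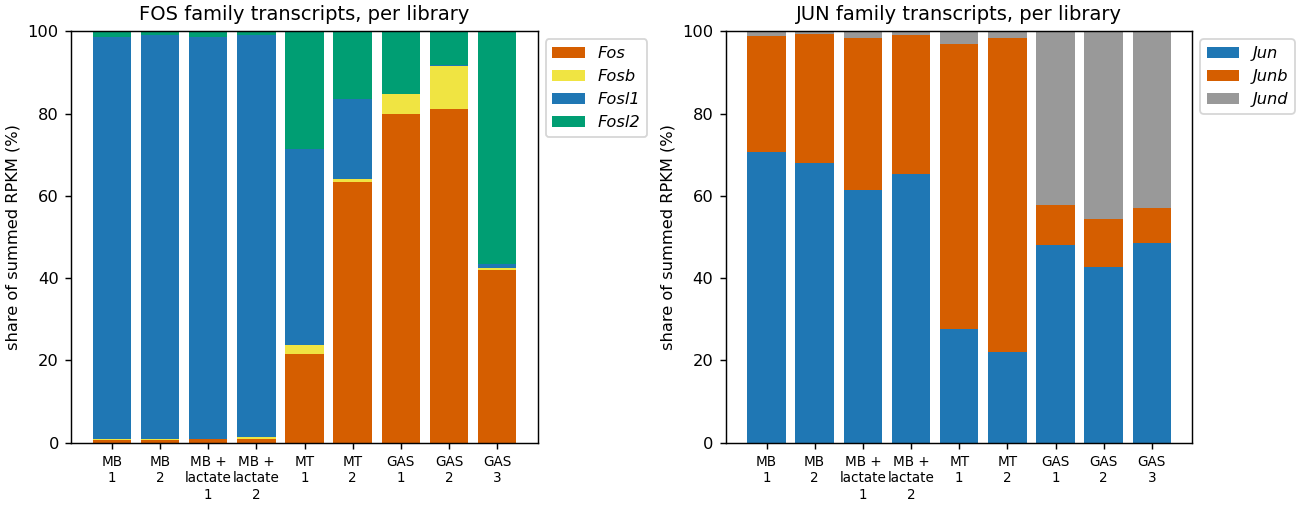
Share of each gene in the summed RPKM of its family, in percent, for the 4 FOS genes and for the 3 JUN genes, with 1 stacked bar per library. Fosl1 fills 97.5% or more of the FOS bar in each MB and lactate-treated library, Junb is the largest JUN share in both MT libraries, and Jund reaches 42.3% to 45.7% in GAS.

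The JUN subunits diverged as well. Jun (chr4:95049034-95052222, minus strand), the most potent activator of the family, had 300.1 and 302 CPM in MB and 127 and 172 CPM in MT. Both MT libraries were below both MB libraries, with a log2FC of -1.02 (SE 0.44), but the adjusted p was 0.136. Junb (chr8:84974484-84978718, minus strand), which is known to restrain Jun in proliferating cells, had 86.2 and 99.8 CPM in MB and 231 and 429.98 CPM in MT. All MT values were above the MB values, and the log2FC was 1.81 (SE 0.47, adjusted p = 0.0233). Without MT replicate 2 it was 1.22 (adjusted p = 0.187), and without MB replicate 1 it was 1.68 (adjusted p = 0.0712). Jun and Junb share 232 and 173 exonic bases with Junos and Prdx2 on the other strand. Prdx2 had between 1473 and 4744 raw counts in the 9 libraries, so the division of reads in the bases it shares with Junb is uncertain too.

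Jund, the third JUN gene, had 2.70 and 1.81 CPM in MB and 7.67 and 6.49 CPM in MT (log2FC 1.64, SE 0.75, adjusted p = 0.156). In the MB libraries Jun made up 70.7% and 68.0% of the summed RPKM of Jun, Junb and Jund, and Junb 28.1% and 31.2%. In MT the order was inverted, with 27.5% and 22.1% for Jun and 69.3% and 76.3% for Junb. The JUN family total was 136 ± 4.21 RPKM in MB and 195 ± 70.4 RPKM in MT.

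The zinc finger gene Egr1, a target of serum response factor and of the ERK pathway, had 118 and 91.5 CPM in MB and 196 and 512 CPM in MT. Both MT libraries were above MB, and they differed 2.61-fold from each other. The log2FC was 1.71 (SE 0.53, adjusted p = 0.0482), close to the threshold, which it missed with RLE size factors (adjusted p = 0.0517), without MT replicate 2 (log2FC 0.80, adjusted p = 0.429) and without MB replicate 2 (log2FC 1.42, adjusted p = 0.14). Nr4a1 (chr15:101254269-101274795, plus strand) encodes the orphan nuclear receptor NUR77, which is known to regulate glucose metabolism in muscle. It had 8.21 and 10.7 CPM in MB, but 13.9 and 97.9 CPM in MT, a 7.03-fold difference between the MT libraries. The log2FC was 2.51 (SE 0.76, adjusted p = 0.0432). Without MT replicate 2 it was 0.47 (adjusted p = 0.719), and in a fit of all 6 cultured libraries the adjusted p was 0.053.

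Ier2 (chr8:84661331-84662852, minus strand), a small nuclear protein gene without introns, had 99.0 and 73.8 CPM in MB. In MT it had 66.6 CPM in replicate 1, below both MB libraries, and 230.2 CPM in replicate 2, above both. The log2FC of 0.72 (SE 0.55, adjusted p = 0.396) turned to -0.49 without MT replicate 2. Atf3 (chr1:191170296-191218039, minus strand), a stress-induced repressor of the ATF family, was low throughout with 2.57 and 1.69 CPM in MB and 3.05 and 2.80 CPM in MT (log2FC 0.45, SE 0.82, adjusted p = 0.747).

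**Figure D3:**
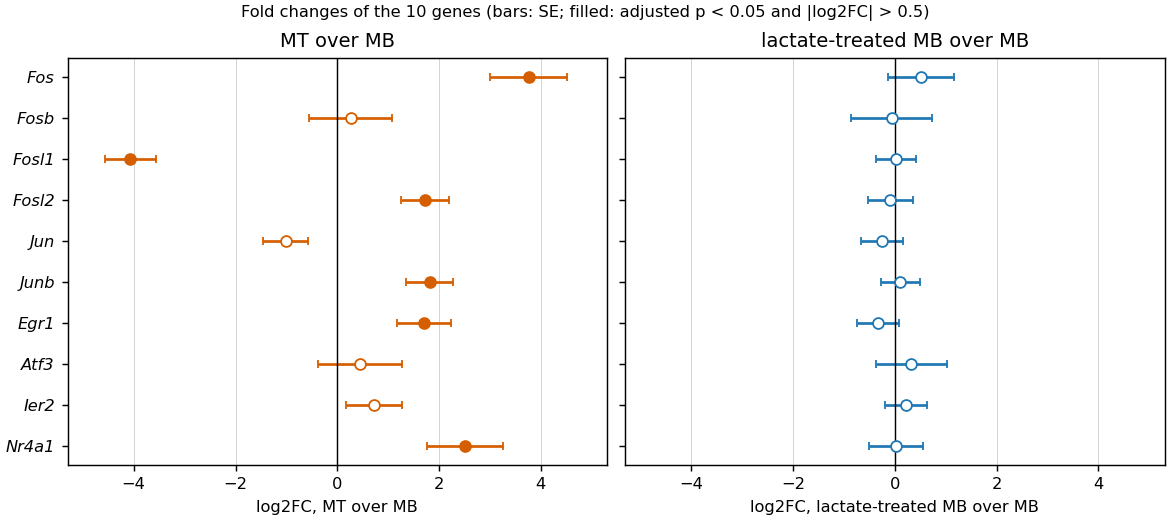
Difference of MT from MB and of lactate-treated MB from MB for each gene, as log2FC with bars of 1 SE, filled where the adjusted p was under 0.05 and the absolute log2FC over 0.5. Differences in MT run from -4.06 (Fosl1) to 3.76 (Fos), whereas those after lactate run from -0.33 (Egr1) to 0.51 (Fos) and none is filled.

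Among the 10 genes, the 2 MT libraries differed most in Nr4a1, Fos, Ier2, Egr1 and Junb. MT replicate 2 exceeded replicate 1 by 2.73, 2.19, 1.77, 1.38 and 0.89 on the scale of log2(CPM + 1) for these genes, where the middle 90% of all genes tested lay between -1.25 and 1.21 with a median of 0.13. The other members lay between -0.55 (Fosl1) and 0.43 (Jun). Among further immediate early genes, Egr2 was 11.0 times and Ccn2 4.99 times as high in MT replicate 2, genes that were picked after their values were seen. The nonmuscle markers moved the other way, being higher in MT replicate 1, and their part in these differences was not tested.

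Relatives and partners of AP-1 gave 1 call. Of all genes tested, 11.0% rose and 6.86% fell, shares against which the counts of this and the following lists can be read. Of 12 further AP-1 genes (JUN, BATF, JDP, ATF and MAF members), 8 passed the filter on low counts, 1 of these rose and none fell, with a median log2FC of 0.35. The riser was Maf, a large MAF factor, with 1.96 and 0.84 CPM in MB and 9.83 and 11.5 CPM in MT (log2FC 2.88, SE 0.78, adjusted p = 0.0278, and 0.0831 without MB replicate 2). Batf, Batf2 and Batf3 were among those not tested. Of 10 transcription factors that act upstream of immediate early genes (SRF, the ELK, MRTF and CREB members and STAT3), 1 rose and none fell, with a median of -0.46. Stat3, which carries cytokine signals to the nucleus, had 51.2 and 46.5 CPM in MB and 318 and 314 CPM in MT (log2FC 2.69, SE 0.45, adjusted p = 0.0033). Srf itself had 16.2 and 8.92 CPM in MB and 2.16 and 5.21 CPM in MT (adjusted p = 0.0985).

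Of 30 other immediate early genes, 29 were tested, of which 3 rose, 3 fell and 23 did not pass, with a median log2FC of 0.18. The circadian repressor gene Bhlhe40 had 9.68 and 8.07 CPM in MB and 272 and 225 CPM in MT (log2FC 4.80, SE 0.51). Ccn2, which encodes a matricellular protein, rose by 3.59 (SE 0.71) and Btg2, an antiproliferative gene, by 2.79 (SE 0.51). Myc, the growth-promoting factor, went from 245 and 189 CPM in MB to 33.1 and 24.3 CPM in MT (log2FC -2.92, SE 0.48). Trib1 and Sgk1 fell by 1.96 (SE 0.48) and 1.68 (SE 0.47). Both counts are near what 11.0% and 6.86% of the genes tested would give. Ccn2 kept its call without each library in turn, and Trib1 (adjusted p = 0.2) and Sgk1 (0.41) lost theirs without MT replicate 1.

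Of 16 feedback inhibitors of the pathways that induce these genes, 2 were higher and 3 lower, with a median of -0.35, where 11.0% and 6.86% of all genes tested were. Zfp36l1, an RNA-binding protein that destabilises short-lived transcripts, and the ERK pathway inhibitor Spry1 rose by 3.50 (SE 0.58) and 3.35 (SE 0.79). The phosphatase genes Dusp5 and Dusp4 fell by 3.32 (SE 0.65) and 2.00 (SE 0.55), and Zfp36l2, a relative of Zfp36l1, fell by 2.18 (SE 0.54). The calls on Dusp4 (adjusted p = 0.323) and Zfp36l2 (0.244) were lost without MT replicate 1, and that on Spry1 (0.081) without MT replicate 2. Among 14 genes known as AP-1 targets, 13 were tested, 4 rose, 6 fell and 3 did not pass, with a median of 0.39. The collagenase gene Mmp13 had 0.74 and 0.84 CPM in MB and 7.30 and 69.2 CPM in MT (log2FC 5.51, SE 1.02), and kept its call without each library in turn. Mmp3, which encodes stromelysin, rose by 4.08 (SE 0.74). The cytokine gene Il6 was called higher as well, with 4.77 and 9.92 CPM in MT, but both MB libraries were under the limit of 3 counts. The architectural factor genes Hmga1 and Hmga2, the cyclin gene Ccnd1 and the urokinase receptor gene Plaur fell by 6.07 (SE 0.71), 3.86 (SE 0.56), 4.37 (SE 0.59) and 2.33 (SE 0.44).

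In the stress responses, none of 4 tested heat shock genes passed, with a median of -1.24 and adjusted p of 0.0585 or more, and of 8 tested ATF4-dependent stress genes 1 rose and 2 fell, with a median of -1.04. Ddit4 rose by 1.90 (SE 0.56), and Asns and Sesn2 fell by 1.82 (SE 0.48) and 1.57 (SE 0.47). All 3 calls were lost when either MT library was left out, with adjusted p of 0.0642 to 0.294, those on Ddit4 and Sesn2 also without MB replicate 2 (0.0627) and MB replicate 1 (0.136). Of the nonmuscle markers 3 of 11 were tested and 1, Dcn, was called higher in MT. Of 8 muscle identity genes 5 rose and 1, Pax7, fell.

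**Figure D4:**
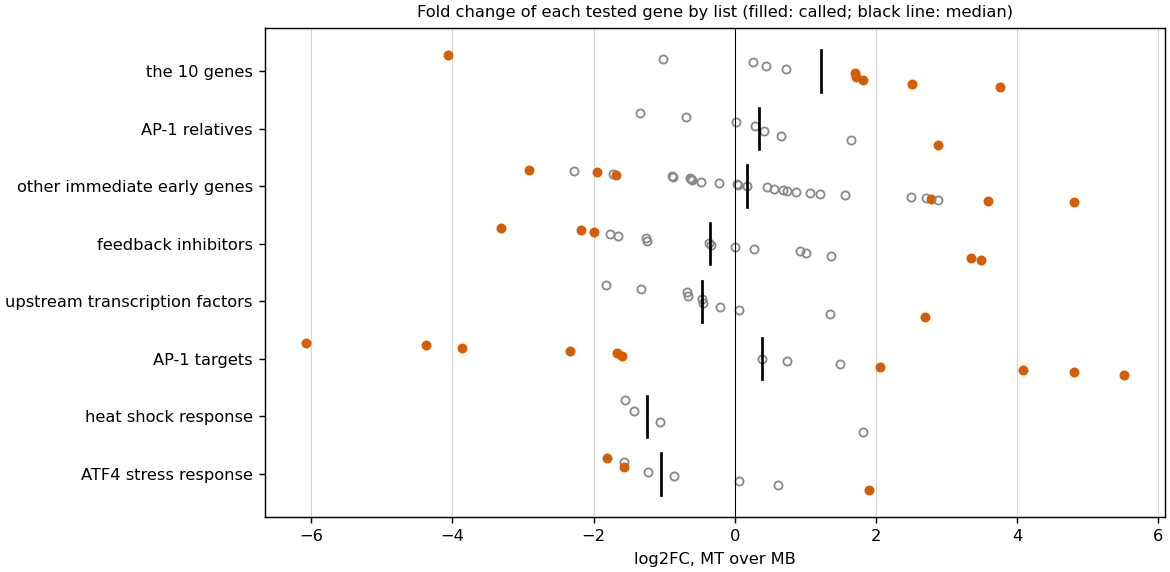
Difference of MT from MB (log2FC) for each tested gene of the 10 immediate early genes and of 7 related lists, 1 point per gene, filled where called, with a line at each list's median. Filled points lie on both sides of 0 for the 10 genes, the other immediate early genes, the feedback inhibitors, the AP-1 targets and the ATF4 stress genes.

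Across the 6 cultured libraries, the genes whose log2(CPM + 1) was most like that of Fos among 10272 genes were Hes6, Ccdc91 and Fst, with Pearson r of 0.995, 0.994 and 0.993. For Fosl1 they were Gm7964, Haspin and Kif20a (0.999 each), for Jun Casp2, Crybg1 and E2f8 (0.997, 0.996 and 0.993) and for Egr1 Pttg1ip, Ttc28 and Stard13 (0.999, 0.993 and 0.993). Hes6 encodes a factor of muscle differentiation and Fst the activin antagonist follistatin, while Haspin and Kif20a encode mitotic proteins. Among the 10 genes themselves, Fos was most like Junb (0.987) and Egr1 (0.963) and ran opposite to Fosl1 (-0.919). These values describe 6 points that fall mainly into 2 levels, MB and MT.

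Lactate treatment was compared with control MB to learn whether lactate alone shifts MB expression. None of the 10 genes passed, and no gene of the 11804 tested did (0.00% higher and 0.00% lower, all 10 members tested). At an unadjusted p under 0.05, 5 genes were found in all and none of the 10, whose smallest unadjusted p with edgeR was 0.451 (Egr1). That was far fewer than this threshold would give among 11804 genes without any difference, so the fit was conservative here. With the replicate number as a block, 166 genes were at an unadjusted p under 0.05 and none passed after adjustment. DESeq2 made 0 adjusted calls as well, with 3 genes at an unadjusted p under 0.05. The median log2FC was 0.02 over the 10 genes and -0.003 over all genes tested. No gene of the other 9 lists passed either.

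Fos had 2.99 and 4.44 CPM in lactate-treated MB against 2.57 and 2.53 in control MB. Both treated libraries were above both controls, which 3.60% of all genes tested also showed, and the log2FC was 0.51 with a 95% interval of -1.05 to 2.08. Atf3, at 2.81 and 2.67 CPM against 2.57 and 1.69, was the other of the 10 genes without overlap (log2FC 0.33, interval -1.35 to 2.00). Both are low genes, with 14 to 25 raw counts in each of these 4 libraries. For the remaining 8 genes the groups overlapped, and none lay below both controls in both treated libraries, as 8.05% of all genes tested did.

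The abundant members bounded the difference more tightly. Fosl1 had 308 and 387 CPM after lactate, with a log2FC of 0.01 and an interval of -0.94 to 0.97. Junb had 89.9 and 115 CPM (log2FC 0.11, interval -0.83 to 1.05) and Jun 208 and 306 CPM (log2FC -0.25, interval -1.24 to 0.73). Egr1 had 70.3 and 99.7 CPM (log2FC -0.33, interval -1.32 to 0.66) and Ier2 124 and 82.7 CPM (log2FC 0.22, interval -0.77 to 1.20). These intervals come from the fit without a replicate term, although libraries with the same number deviated together across genes (r of 0.70). A missed threshold does not show that the levels were equal. Fosl2 at 19.1 and 19.2 CPM, Nr4a1 at 7.55 and 12.1 CPM and Fosb at 1.23 and 3.38 CPM had log2FC of -0.09, 0.03 and -0.06. The composition of the FOS family was near that of control MB, with 97.8% and 97.7% Fosl1.

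In GAS, 8 of the 10 genes had a mean over 1 RPKM, the exceptions being Fosb and Fosl1, and the libraries differed widely in some of them. Fos had 16.7, 33.1 and 2.96 CPM in replicates 1, 2 and 3, and Egr1 had 15.7, 37.1 and 4.46 CPM. For both genes replicate 2 was the highest and replicate 3 the lowest, by 11.2-fold and 8.31-fold. Their coefficients of variation were 85.9% and 86.8%, values reached by 50 and 45 of the 9874 genes with a mean over 1 RPKM, whose median was 7.40%.

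Fosb followed the same order at lower levels, with 55, 221 and 2 raw counts. Ier2 had 4.67, 7.95 and 3.58 CPM, Junb 11.0, 14.1 and 7.53 CPM and Atf3 5.53, 5.47 and 2.39 CPM. Replicate 3 was the lowest for each of these genes too, with coefficients of variation of 42.1%, 30.4% and 40.3%. By contrast Jun had 74.4, 72.0 and 59.6 CPM (11.5%) and Fosl2 13.0, 13.7 and 16.5 CPM (12.7%), with replicate 3 the highest for Fosl2. Nr4a1 had 109, 114 and 111 CPM, and its coefficient of variation of 2.37% was the lowest of the 8 genes.

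Replicate 2 was more than 2-fold above replicate 3 for Fos, Egr1, Atf3 and Ier2, 4 of the 8 genes, where 1.60% of all genes over 1 RPKM were. The order of replicate 2 over 1 over 3 was seen for 4 of the 8 genes, and for 20.0% of all genes. Of the other immediate early genes, 3 of 21 over 1 RPKM (Klf2, Btg2 and Ccn1) met both conditions, as did 2 of 12 feedback inhibitors (Dusp1 and Zfp36), 3 of the 8 genes (Fos, Egr1 and Ier2) and 1.14% of all genes over 1 RPKM. Both conditions follow the order seen in Fos and Egr1 in these same libraries, so those genes meet them by construction. The shares therefore describe the 8 genes and do not test them. The 5 genes named from the other lists were picked after their values were seen. None of the 4 heat shock genes, 5 ATF4 stress genes, 10 upstream factors, 8 AP-1 relatives, 4 AP-1 targets, 5 muscle identity genes or 9 nonmuscle markers over 1 RPKM was more than 2-fold higher in replicate 2 than in replicate 3. The summed nonmuscle markers were at 440, 463 and 518 CPM in replicates 1 to 3, with all 11 detected.

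**Figure D5:**
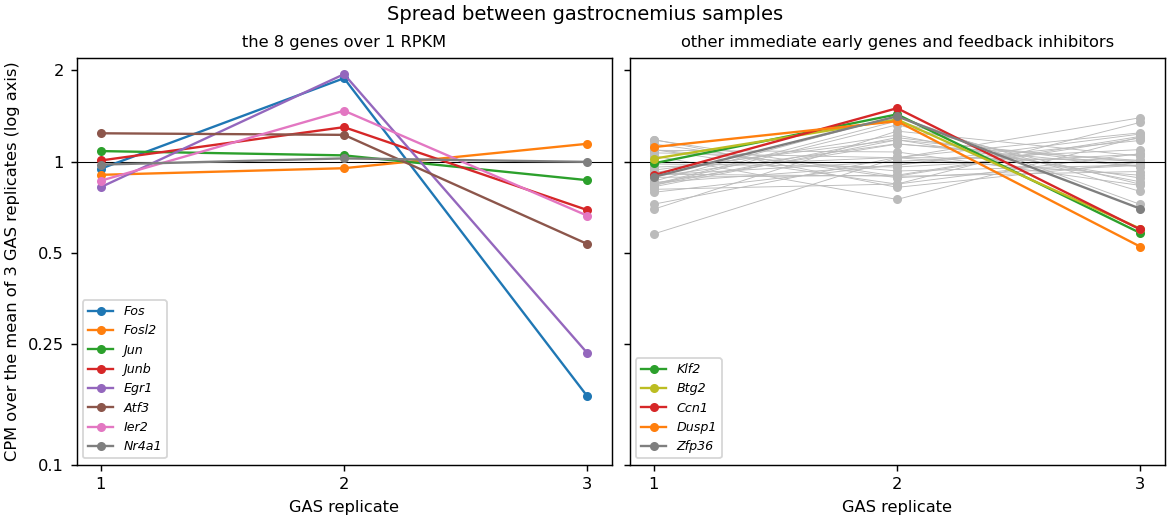
CPM in each GAS replicate over the mean of the 3 replicates, on a log axis, for the 8 genes over 1 RPKM and for the other immediate early genes and feedback inhibitors, 1 line per gene, with colour for the 5 genes named in the text. Lines join the values of 1 gene and the replicates have no order. Fos and Egr1 fall furthest in replicate 3, and Nr4a1 stays near 1.

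The make-up of the FOS family moved with this difference. Fos was 79.8%, 81.1% and 41.9% of the summed RPKM of the FOS genes in GAS replicates 1, 2 and 3, and Fosl2 15.1%, 8.14% and 56.7%. In replicate 3 the family total was 3.00 RPKM against 8.87 and 17.4 in the others. The JUN family was steadier, with 42.7% to 48.6% Jun, 42.3% to 45.7% Jund and 8.50% to 11.6% Junb. Jund had 27.5 to 40.2 CPM in GAS.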

How the data were processed

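RNA sequencing libraries of GAS (3), MB (2), lactate-treated MB (2) and MT (2) were used. The authors trimmed reads with Trim Galore 0.6.6, aligned them to mm10 with HISAT2 2.2.1 and counted them on genes with featureCounts of Subread 2.0.1, and deposited raw counts per gene. How strand and reads with several alignments were handled, and the annotation release, are not given in the sources used here. GENCODE M21 gave gene names, positions and exonic lengths, and RefSeq the promoters, both on GRCm38.

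Counts were analysed with edgeR 4.0.16, limma 3.58.1 and DESeq2 1.42.0 in R 4.3.3, and with pandas 2.3.3 and scipy 1.17.1 in Python 3.11.15. CPM and RPKM used TMM factors computed separately for GAS and cultured cells. Each comparison was a fit of its 4 libraries, with edgeR's filter on low counts, the quasi-likelihood test and Benjamini-Hochberg adjustment over all genes tested. Genes were called at an adjusted p under 0.05 and an absolute log2FC over 0.5, and intervals are 95% intervals from the fitted SE. With 2 libraries a group, an exact permutation test of 1 gene cannot give a p under 0.333. P-values measure the spread between these libraries, which may be partly technical. The fits were tested on simulated data.

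The 10 genes and the lists were chosen with earlier results of these data known. Named were the 10 genes, up to 4 genes per direction with the largest change among those called in MT against MB in each list, the 3 genes most like Fos, Fosl1, Jun and Egr1 among genes with a mean CPM over 5, and muscle identity genes. A gene meeting this rule was left out here. Jund and Srf were named as the remaining JUN gene and as a negative result, and the motifs and windows were chosen after the promoters were seen. Alternatives were RLE size factors, DESeq2, edgeR's likelihood ratio test, no filter, at least 10 counts in every library, the replicate number as a block, all 6 cultured libraries in one fit, ribosomal RNA genes left out, no fold threshold, longest-transcript lengths and leaving out each library. Crossed replicate numbers were added after the data were seen.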

Additional observations from a re-analysis of the deposited data

How the results depend on the processing

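Of the 10 genes, 6 passed in MT against MB, and 5 or 6 did so under the 10 alternatives that kept all libraries. When single libraries were left out, between 1 and 5 passed, with 1 (Fosl1) without MT replicate 2, where the median log2FC of all genes shifted to 0.72. Fos and Fosl1 passed whenever MT replicate 2 was kept. Left-out libraries turned the sign of 2 genes that had not passed, with log2FC of -0.12 to 0.39 for Fosb and -0.49 to 1.33 for Ier2. For lactate 0 of the 10 genes passed under each alternative. Leaving out single libraries gave log2FC of -1.01 to 0.52 for Fosb, -0.20 to 0.22 for Fosl1, -0.27 to 0.21 for Fosl2, -0.60 to 0.040 for Jun, -0.12 to 0.32 for Junb, -0.047 to 0.53 for Ier2 and -0.40 to 0.37 for Nr4a1, so the sign of these 7 differences depended on 1 library. Fosb was not tested there with at least 10 counts in every library. In GAS, 8 or 9 genes had a mean over 1 RPKM under all alternatives. The number of genes called in MT against MB was 1425 higher and 887 lower, 1908 and 1343 with the likelihood ratio test, 1729 and 1292 with DESeq2, 766 and 678 with at least 10 counts, 4118 and 803 without MT replicate 2 and 962 and 270 without MT replicate 1. With 2 libraries a group, 2-fold differences of low genes such as Fosb and Atf3 are not resolved. The 2.02-fold difference of the abundant Jun in MT was not called either (adjusted p = 0.136, quasi-likelihood test).

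The labels do not say whether the replicate numbers pair the libraries, and 2 libraries a group cannot settle it. Deviations of libraries with the same number correlated across genes with r of -0.13 for MT and MB and 0.70 for lactate-treated and control MB. With the block, edgeR's common coefficient of variation between replicates went from 0.455 to 0.225 for lactate. For MT against MB it went from 0.425 to 0.449. With the replicate number as a block, 5 of the 10 genes passed in MT against MB, the call on Egr1 being lost (log2FC 1.61, adjusted p = 0.0826), and 1447 genes were higher and 824 lower. Of the 33 called genes of the other lists, 30 passed with the block, the calls on Asns (adjusted p = 0.057) and Sesn2 (0.0623) being among those lost. For lactate the block gave 0 of the 10 genes and 0 genes in all, with 166 at an unadjusted p under 0.05, and the log2FC of Nr4a1 turned to -0.00068. With crossed replicate numbers as a block, 5 of the 10 genes passed in MT against MB, and 1192 genes were higher and 867 lower.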
